A study of Mus musculus with 5 samples.

Results

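Smooth muscle cells were examined in the dissociated lungs of E18.5 mouse embryos. They were chosen from single-cell RNA counts by their own transcripts: a cell needed at least 500 detected genes, at most 15% mitochondrial UMIs and a UMI of at least 3 of the 5 genes Myh11, Actg2, Cnn1, Des and Lgr6, with no UMI of Tcf21, Ptprc, Epcam or Cdh5. A UMI is the barcode that marks 1 captured transcript. Of 19491 cells that passed the first 2 filters, 400 were members, 81 in Het1, 77 in Het2, 82 in KO1, 65 in KO2 and 95 in KO3. Het1 and Het2 are 2 embryos labelled Zswim8+/- and KO1 to KO3 are 3 embryos labelled Zswim8-/-, with 1 library per embryo and the whole lung of each taken. No wild-type lung was part of the comparison, so the controls also carry 1 mutant Zswim8 allele, and the labels do not say how the allele was made. Zswim8 encodes the substrate receptor of a ubiquitin ligase that removes Argonaute proteins in microRNA decay directed by trigger transcripts.

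Smooth muscle contracts when calcium and calmodulin activate myosin light chain kinase, and the force is carried by smooth muscle actin and myosin with their regulators calponin, transgelin and the tropomyosins. In the fetal lung it lies around the airways, where it is marked by genes such as Hhip and Actg2, and around the vessels, where Notch3 signalling and elastin production are typical. The programme is driven by the transcription factor SRF with its coactivator myocardin, which binds the CArG box in the control regions of contractile genes.

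To show that motif in genes that these cells express, the windows from 250 bases before to 50 bases after the start site in RefSeq (build GRCm38.p6) were searched on both strands for the CArG box. The pattern reads the same on either strand. Of 25 contractile genes listed, 21 had such a window, and 3 of the 21 (14.3%) held the motif, against 1.81% of 27025 genes with a window. Tagln, Myh11, Actg2 and Tgfb1i1 had no window, so they were not searched. The 3 stretches follow 5′ to 3′ in the direction of transcription, with the motif in capitals. The match is a description and was not tied to binding.
Vcl (vinculin, chr14:20929161-20929190, plus strand): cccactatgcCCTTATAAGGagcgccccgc
Myl9 (regulatory myosin light chain, chr2:156775293-156775322, plus strand): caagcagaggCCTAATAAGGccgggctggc
Myl6 (essential myosin light chain, chr10:128493040-128493069, minus strand): gctcttacttCCTTATATGGgcaggaccta
The motif began 227 bases before the start site in Vcl, 161 in Myl9 and 50 in Myl6. The levels of the 3 genes are given with the contractile list.

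The label was checked against other markers. Transcripts that the rule did not use were frequent: a UMI of Acta2, smooth muscle actin, was found in 97.8% of members (96.3% to 98.7% across libraries) and of Tagln, transgelin, in 99.0%. In cells with a UMI of the leukocyte gene Ptprc, which should lack both, the shares were 10.1% and 4.18%, which gives the background of free RNA. Myocd, the coactivator of SRF, was found in 51.8% of members and in 0.654% of the Ptprc cells. The comparison with Ptprc cells bears on free RNA only. It cannot show whether these genes set members apart from the cells most like them, such as pericytes and myofibroblasts. The median depth per library ran from 10307 to 13050 UMIs in members and from 9996 to 12974 in all cells kept. The choice at the threshold was narrow, because 205 of the 400 members held exactly 3 of the 5 genes (39, 38, 45, 32 and 51 in library order) and 284 cells just outside held 2 (48, 48, 65, 51 and 72). A further 252 cells had 3 or more of the 5 genes and were left out because of a UMI of Tcf21, Ptprc, Epcam or Cdh5.

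The members were a mixture, which was described by sorting them in a fixed order with thresholds set after the values were seen. The largest group, 203 members (50.8%), had Notch3 UMIs and no Hhip UMI. It was rich in genes of vascular mural cells: Heyl, a Notch target, averaged 3.02 UMIs per cell and Eln, elastin, 156. Another 132 members (33.0%) held UMIs of at least 3 of Pdgfra, Tgfbi, Wnt5a, Fgf18 and Enpp2, which mark alveolar myofibroblasts. In them Acta2 averaged 20.1 UMIs per cell against 74.8 in the Notch3 group, and Tagln 18.02 against 68.7. For these members the label is not borne out by the other markers, and they are called here members with myofibroblast markers. The 31 members with Hhip and no Notch3 UMIs had more of several contractile transcripts than the Notch3 group. They averaged 22.3 UMIs per cell of Mylk, myosin light chain kinase, 17.6 of Actg2 and 7.97 of Cnn1. Chrm2, which encodes a muscarinic acetylcholine receptor, averaged 4.16 in them. In the Notch3 group the same 4 genes averaged 5.34, 6.53, 1.78 and 0.015. Eln went the other way, at 10.7 UMIs per cell in the Hhip group. Since the genes also sorted the cells, these values carry no test.

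**Figure D1:**
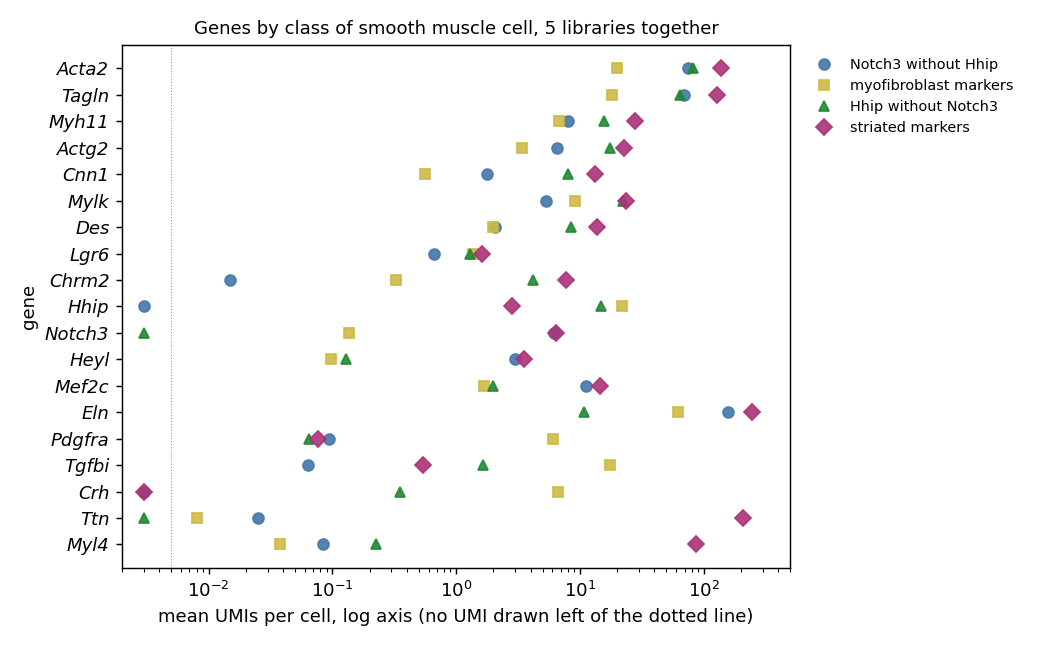
Mean UMIs per cell (log axis) of 19 genes in 4 classes of smooth muscle cell, all 5 libraries together; each symbol is 1 class. Hhip members lie above Notch3 members in Mylk and Actg2 and below them in Eln, the few members with striated muscle markers lie highest in all 3, and Crh lies almost wholly in members with myofibroblast markers.

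A further 13 members held UMIs of at least 3 of 11 cardiac and skeletal muscle genes, and they were uneven across libraries: 9 in Het1, 3 in Het2, 1 in KO1 and 0 in KO2 and KO3. These cells averaged 209 UMIs of Ttn, titin, and 87.4 of Myl4, an atrial myosin light chain, but the means rested on few cells. In Het1 1 member held 2475 of 2633 Ttn UMIs and 1 held 654 of 990 Myl4 UMIs. The 9 cells in Het1 had a median of 33351 UMIs of all genes. The summed level of the 11 genes in all members was 7034 CPM (UMIs scaled to a common library size) in Het1, 1128 in Het2 and 151 to 162 in the KO-labelled libraries. Myl7, an atrial light chain, went from 1742 and 506 CPM in the Het libraries to 18.9, 0 and 3.68. The remaining 21 members had both or neither of Notch3 and Hhip. Across these classes, 143 of the 400 members (35.8%) also met a pericyte rule, UMIs of at least 3 of Cspg4, Cox4i2, Higd1b, Kcnj8 and Notch3. The makeup otherwise overlapped between the genotypes: the Notch3 group took 48.1% and 49.4% of members in the Het libraries and 59.8%, 43.1% and 51.6% in the KO-labelled ones, and the myofibroblast group 29.6% and 36.4% against 26.8%, 41.5% and 32.6%. The Hhip group took 6.17% and 5.19% against 4.88%, 12.3% and 10.5%. Free RNA was present too. UMIs of 10 epithelial genes averaged 4.12 to 8.43 per member and 3.07 to 6.94 per red-cell barcode, and 6 erythroid genes were lowest in KO1, at 62.0 UMIs per member against 144 to 204 in the others.

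**Figure D2:**
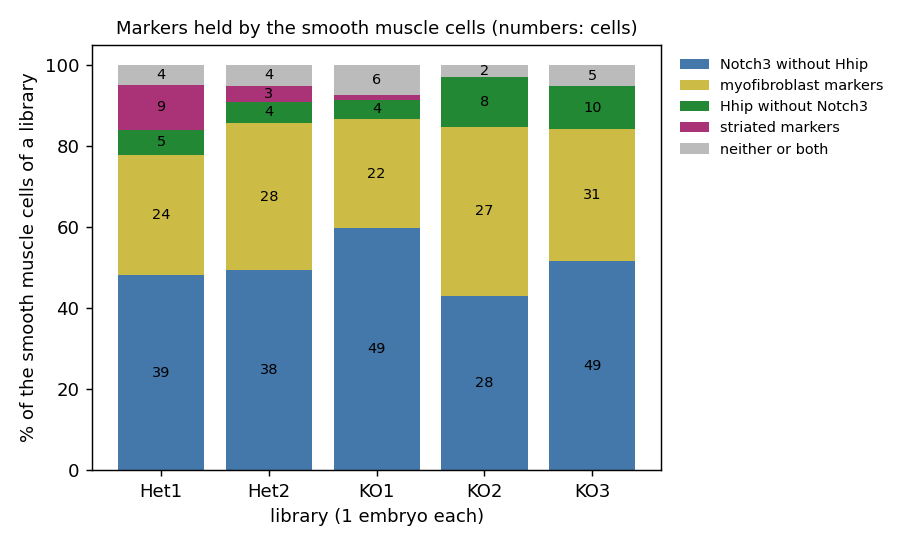
Percent of the smooth muscle cells of each library that fall in each of 5 marker classes, with the number of cells printed in the bars. Striated muscle markers were held by 9 cells in Het1 and 3 in Het2 and by 1 cell in the KO-labelled libraries, and the other classes overlap between the genotypes.

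KO1 and KO2 were female by Xist (1006 and 1056 CPM over all kept cells, against at most 0.453 in the other 3 libraries), so sex is partly confounded with genotype. No 2 libraries shared a member's barcode as members, and replicate libraries of 1 genotype differed by more than counting noise, with a chi-square per degree of freedom from 2.48 to 4.51. Zswim8 itself was measured first among the genes: its level in members was 31.1 CPM in Het1 and 43.5 in Het2, against 48.1 (KO1), 46.0 (KO2) and 50.01 (KO3). The log2 fold change was 0.37 (SE 0.222, edgeR adjusted p = 0.723), so the KO-labelled libraries were not lower. Counts of 3′ ends do not show whether the transcript is intact, and every direction below rests on the labels. Each embryo is 1 replicate, and fewer cells of a kind and less RNA per cell cannot be told apart in a library sum.

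The share of smooth muscle cells depended on depth and on what it was divided by. Of all cells kept, members made up 1.68% in Het1 (exact 95% binomial interval 1.34 to 2.08, counting error only) and 1.83% in Het2 (1.45 to 2.28). They made up 2.62% in KO1 (2.09 to 3.24), 1.96% in KO2 (1.51 to 2.49) and 2.37% in KO3 (1.92 to 2.89). The groups did not overlap, with a mean of 1.76% ± 0.107 (SD, n = 2) for the Het libraries. The mean of the KO-labelled ones was 2.31% ± 0.336 (SD, n = 3), a difference of 0.558 percentage points. The two-sided exact permutation p was 0.2, and 2 against 3 libraries cannot go below 0.1. When each cell was thinned to 5000 UMIs, which left out 1774 Het and 1907 KO-labelled cells that were shallower, the difference was -0.0492 points (exact permutation p = 0.7) and the groups overlapped. Of cells with collagen UMIs, members were the smaller part in the KO-labelled libraries, at 11.4% ± 1.22 (SD, n = 3) against 14.5% ± 0.906 (SD, n = 2), an exact permutation p of 0.1. Thinning also changed which cells met the rule. It left 65 and 59 members in the Het libraries and 48, 36 and 56 in the KO-labelled ones. So the direction turned with thinning and with the denominator, and no change in number was shown.

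The genotypes were compared by the UMIs of all members of a library added together, with edgeR's quasi-likelihood test over 9267 genes. Few genes passed, which does not show that the others were unchanged, and the most abundant ones stayed close. Of the 9267 genes, 3 were lower in KO-labelled libraries at an adjusted p under 0.05 (0.0324%) and 0 were higher (0%). At an unadjusted p under 0.05 the counts were 428 lower (4.62%) and 311 higher (3.36%), and DESeq2 called 34 lower and 1 higher. With sex as a covariate edgeR called 0 genes, with 361 at an unadjusted p under 0.05. The libraries of the 2 genotypes did not overlap for 1121 genes on the lower side (12.1%) and for 1197 on the higher side (12.9%). Among the 10 most abundant genes, ribosomal, mitochondrial and haemoglobin genes aside, 9 had log2 fold changes from -0.25 to 0.10. The exception was Gm42418, which overlaps ribosomal RNA and can be read from it, at -0.63 (SE 0.125, edgeR adjusted p = 0.139).

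Higd1b passed the test. It encodes a mitochondrial protein of the hypoxia-induced gene domain family that is used as a pericyte marker (ENSMUSG00000020928, chromosome 11, 102835849 to 102838040, GRCm38). Its level was 78.2 CPM in Het1 and 133 in Het2, against 6.31 (KO1), 12.8 (KO2) and 4.41 (KO3). The KO-labelled libraries were all far below the Het ones, with a log2 fold change of -3.86 (SE 0.367, edgeR adjusted p = 0.0105). The UMIs came from few cells: 7 members in Het1 and 6 in Het2 had any, and the 3 richest cells gave 84 of 88 and 144 of 147 UMIs. In the KO-labelled libraries 3, 6 and 3 members had any, with at most 6 UMIs in a cell. All but 4 of the Het UMIs lay in the Notch3 group, and 83 of 88 and 147 of 147 in members that also met the pericyte rule, of which Higd1b is a gene. The number of such members was 30 and 30 in the Het and 38, 17 and 28 in the KO-labelled libraries. In pericytes outside the members, which Higd1b helped to choose, it stood at a mean of 347 CPM in Het and 554 in KO-labelled libraries. Its call did not hold when 2 of the 5 marker genes sufficed for membership, where the log2 fold change was 0.28 (edgeR adjusted p = 0.993). With sex as a covariate it was -4.54 (edgeR adjusted p = 0.314). The call was also lost, with the direction kept, with up to 1 UMI of the other cells' genes and without members with myofibroblast markers. It held in 15 of the 19 alternatives in which Higd1b was tested.

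Pdzd2 also passed. It encodes a large protein with many PDZ domains (chromosome 15, 12359711 to 12739924, GRCm38). The level was 26.7 CPM in Het1 and 47.1 in Het2, and 5.52, 2.56 and 3.68 in the KO-labelled libraries, which lay below both. The log2 fold change was -3.14 (SE 0.404, edgeR adjusted p = 0.0192), and again 3 cells gave 26 of 30 and 46 of 52 UMIs in the Het libraries. Of the UMIs in Het1 and Het2, 25 of 30 and 46 of 52 lay in the Notch3 group, and 23 and 49 in members that also met the pericyte rule. With only members of that group the log2 fold change was -3.90, and the call held. The call was lost with similar folds when KO3 (-3.06, edgeR adjusted p = 0.229) or KO2 (-2.98, 0.0571) was left out. With 2 of the 5 marker genes as the rule the log2 fold change was -0.75 (edgeR adjusted p = 0.853), and with up to 1 UMI of the other cells' genes it was -1.42 (0.531).

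Cox7a1, the muscle isoform of a subunit of cytochrome c oxidase (chromosome 7, 30184144 to 30186078, GRCm38), was the third gene. Its level was 48.9 CPM in Het1 and 19.03 in Het2, and 1.58, 1.28 and 0.735 in the KO-labelled libraries. The log2 fold change was -4.73 (SE 0.595, edgeR adjusted p = 0.0192). Of its UMIs, 54 of 55 in Het1 and 19 of 21 in Het2 lay in the members with striated muscle markers, and 1 cell held 37 of those in Het1 and 1 held 19 in Het2. The call was lost with similar folds without Het1 (-3.89, edgeR adjusted p = 0.0683), KO2 (-4.78, 0.0895) or KO3 (-4.44, 0.25). With 2 of the 5 marker genes it was -1.18 (edgeR adjusted p = 0.986) and with up to 1 UMI of the other cells' genes -2.35 (0.674). With the striated muscle members left out it was too low to be tested, while Higd1b (-4.15) and Pdzd2 (-3.27) kept their calls.

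**Figure D3:**
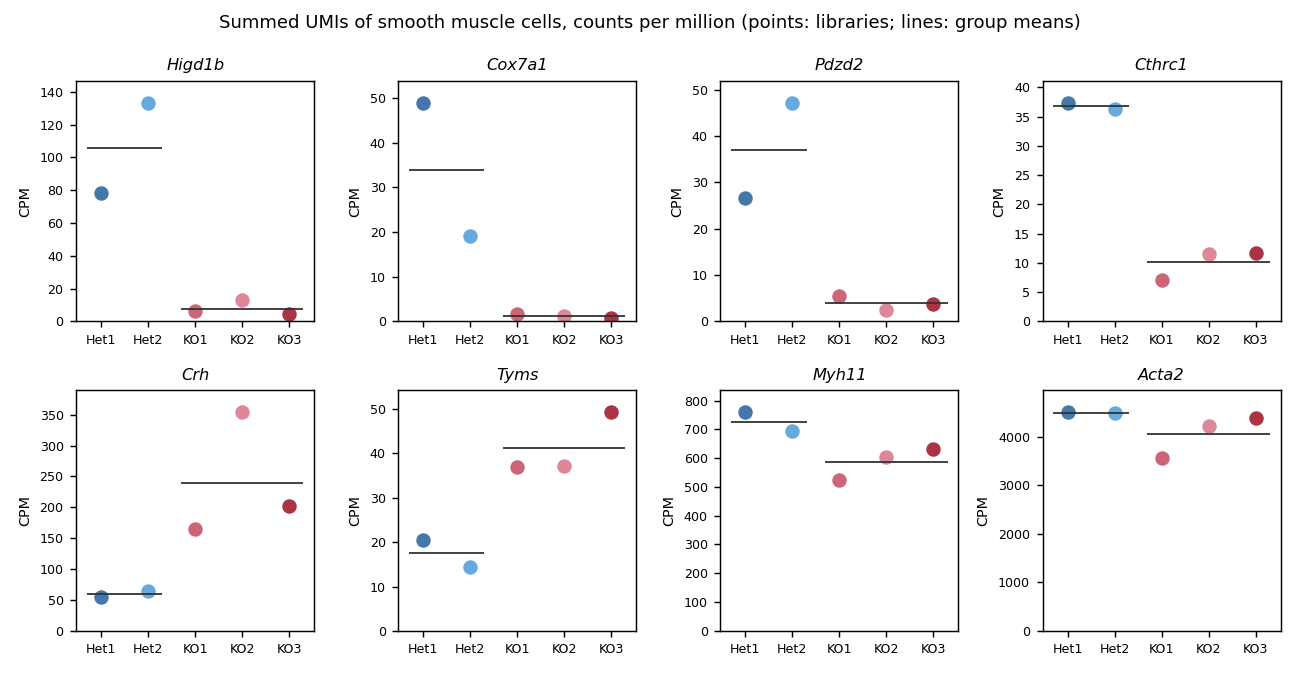
CPM of 8 genes in the summed smooth muscle cells; points are the 5 libraries and lines the group means. Higd1b, Cox7a1 and Pdzd2 are the genes past the adjusted threshold, and the KO-labelled libraries also lie below the Het ones for Cthrc1 and above them for Crh and Tyms, which did not pass.

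The genes next in order on the lower side did not pass. Atp1b1, a beta subunit of the sodium pump, was at 123 and 133 CPM in the Het libraries and at 63.05, 33.2 and 50.01 in the KO-labelled ones, which lay below both (log2 fold change -1.36, SE 0.218, edgeR adjusted p = 0.0738). In Het1 3 members held 92 of its 138 UMIs, and without the striated muscle members the log2 fold change was -0.57 (edgeR adjusted p = 0.921). Lpl, lipoprotein lipase, was at 51.6 and 27.2 against 8.67, 8.94 and 8.83 CPM, and Cthrc1, a secreted collagen triple helix protein, at 37.3 and 36.2 against 7.09, 11.5 and 11.8. Both had an edgeR adjusted p of 0.0698. In Het1 1 member held 36 of 58 Lpl UMIs, and in Het2 1 member held 37 of 40 Cthrc1 UMIs. Without the striated muscle members the log2 fold change of Lpl went from -2.15 to -0.76. The striated muscle gene Cox6a2, the filamin gene Flnc, the adhesion protein gene Cxadr, Dhrs7 and Adamts19 also belonged to them, with log2 fold changes from -7.69 to -1.14. Adamts19 had 38 and 13 UMIs in the Het libraries, 35 of them in 1 member, and 0 in the KO-labelled libraries.

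On the higher side Crh had the largest difference among the genes nearest the threshold. It encodes corticotropin-releasing hormone, the peptide that starts the pituitary stress axis and is also made in the fetal lung. Its level in all members was 55.1 CPM in Het1 and 64.3 in Het2, against 165 (KO1), 354 (KO2) and 202 (KO3). Each KO-labelled library lay above both Het libraries, yet the log2 fold change of 1.99 (SE 0.372) had an edgeR adjusted p of 0.349. DESeq2 called it, and so did the edgeR test without KO2 (adjusted p = 0.0142). Almost all of it came from members with myofibroblast markers, which held 882 of 893 UMIs. In those members Crh averaged 2.58 and 2.54 UMIs per cell in the Het libraries and 9.5, 9.85 and 8.84 in the KO-labelled ones. The members with a UMI were 8 of 24 and 14 of 28 against 20 of 22, 22 of 27 and 21 of 31. In the 203 members of the Notch3 group no UMI of Crh was counted, which allows up to 1.48% of such cells with a UMI over the 5 libraries together (counting error only). Myofibroblasts outside the members had a mean of 124 CPM in Het and 345 in KO-labelled libraries, and a difference between their change and that in members was not shown (difference of log2 fold changes 0.46, SE 0.353, edgeR adjusted p = 0.884).

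The other 9 genes nearest the threshold on the higher side had log2 fold changes from 0.46 to 1.36 and edgeR adjusted p-values from 0.257 to 0.381. Tyms, thymidylate synthase of DNA synthesis, was at 20.4 and 14.5 CPM against 37.0, 37.1 and 49.3. Gas5 and Snhg1, host transcripts of small nucleolar RNAs, were at 812 and 702 against 1148, 1202 and 973, and at 158 and 139 against 202, 298 and 224. Foxp2, a forkhead transcription factor of lung development, was at 53.3 and 39.9 against 89.1, 72.8 and 75.0. Dach1, Ppp5c, Dtx3, Rpl35 and Snrpg completed them.

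None of the 24 contractile genes tested passed, but the list lay mostly on the lower side. Of the 24, 21 had a negative log2 fold change, 9 were lower without overlap between the libraries (12.1% of all genes) and 0 higher (12.9%), and 6 lower had an unadjusted p under 0.05. The median was -0.23 against 0.00 for all genes tested. The list holds Myh11, Actg2, Cnn1 and Des, which also chose the cells, so a floor of 1 UMI acts on them in both genotypes. Of the other 20 genes, 6 were lower and 0 higher without overlap, 4 lower had an unadjusted p under 0.05, and the median was -0.19. Myh11, smooth muscle myosin, was at 759 and 694 CPM in the Het libraries and at 524, 603 and 632 in the KO-labelled ones. Cnn1, calponin, was at 250 and 198 against 90.6, 165 and 170. Acta2 was at 4509 and 4493 CPM against 3567, 4231 and 4397, and Tagln at 4048 and 4036 against 3719, 3547 and 3721. Both did not overlap, with log2 fold changes of -0.15 and -0.14 (edgeR adjusted p = 0.825 and 0.802). Of the genes with the motif shown above, Vcl was at 222 and 279 CPM against 205, 183 and 182 (log2 fold change -0.40, edgeR adjusted p = 0.535). Myl9 and Myl6 overlapped, at -0.23 and -0.13. Without the striated muscle members the median of the list was -0.19, and 3 lower genes had an unadjusted p under 0.05 by edgeR. There 13 of 24, the genes of the rule included, were lower and 0 higher without overlap (11.8% and 11.9% of all genes). In the Notch3 group alone the median was -0.41. There 15 of 24, again with the genes of the rule included, were lower without overlap, where 12.2% of all genes were. Neither of these counts was repeated without the genes of the rule.

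Genes of calcium handling, receptors and relaxation also lay mostly on the lower side. Of 21 tested, none passed, 9 were lower and 0 higher without overlap (12.1% and 12.9% of all genes), and the median was -0.30. Pde5a, the phosphodiesterase that ends the nitric oxide signal, was at 192 and 187 CPM against 120, 127 and 150 (log2 fold change -0.52, SE 0.151, edgeR adjusted p = 0.451). Gucy1b1, a subunit of soluble guanylate cyclase, was at 151 and 168 against 147, 112 and 101. Atp2a2, the calcium pump of the sarcoplasmic reticulum, was at 529 and 252 against 206, 188 and 189, and its log2 fold change of -1.01 became 0.12 without the striated muscle members. Pln, its inhibitor phospholamban, was at 36.4 and 9.97 against 3.15, 1.28 and 6.62. Without the striated muscle members 18 of the list were tested, with a median of -0.16. There 4 were lower and 1 higher without overlap (11.8% and 11.9% of all genes). In the Notch3 group alone 7 of 15 were lower without overlap (12.2% of all genes), with a median of -0.42. Without members with myofibroblast markers 12 of 20 were lower (13.3% of all genes), with a median of -0.40.

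**Figure D4:**
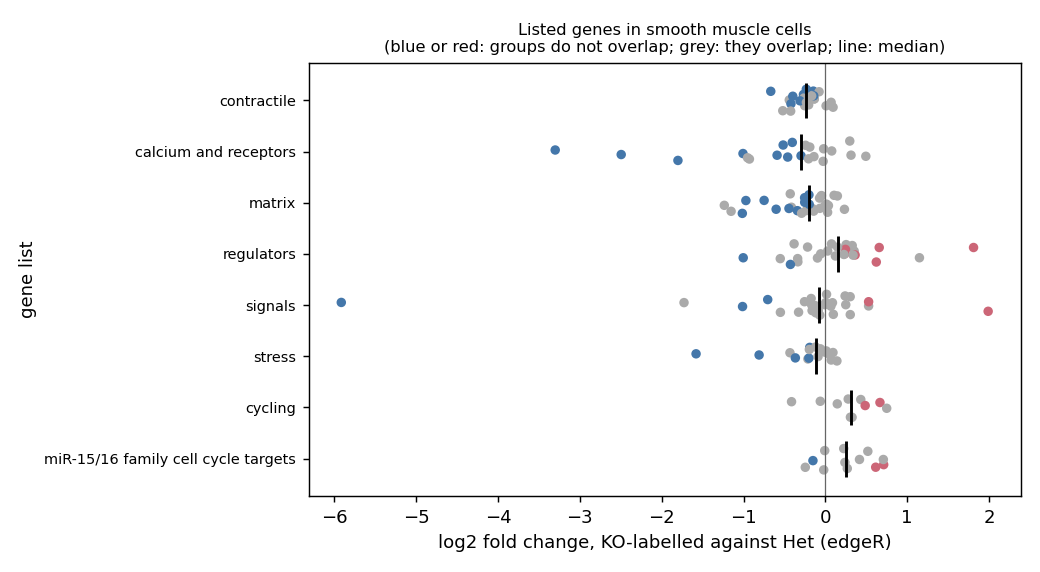
Log2 fold changes between KO-labelled and Het libraries for the genes of 8 lists in summed smooth muscle cells, 1 point per gene, with the list median as a line; coloured points are genes whose libraries do not overlap. The contractile list sits at a median of -0.23 and regulators at 0.15 with all members included, and none of the genes shown passed the adjusted threshold.

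Transcription factors and other regulators showed no common direction across the marker classes. Of 25 tested in all members, none passed, 6 were higher and 2 lower without overlap (12.9% and 12.1% of all genes), and the median was 0.15. Without the striated muscle members the median was 0.02, with 4 of 21 higher and 2 lower without overlap (11.9% and 11.8% of all genes). In the Notch3 group alone it was -0.02, with 3 of 18 higher and 4 lower (11.8% and 12.2% of all genes). Mef2c, a MADS box factor of muscle, was at 438 and 313 CPM against 729, 498 and 550, a log2 fold change of 0.66 (SE 0.197, edgeR adjusted p = 0.483). In the Notch3 group it averaged 7.10 and 6.47 UMIs per cell in the Het libraries and 17.0, 10.8 and 12.9 in the KO-labelled ones. These means are not scaled for depth, and the median depth of that group was 11434 and 11861 UMIs against 14791, 12623.5 and 14705. Gli1, the target and effector of hedgehog signalling, was at 2.67 and 4.53 against 10.2, 17.9 and 11.8 CPM. Srf was at 15.1 and 16.3 against 10.2, 3.83 and 8.09, a log2 fold change of -1.004 (SE 0.421, edgeR adjusted p = 0.576), and Myocd overlapped, at 80.9 and 70.7 against 65.4, 80.5 and 68.4. Klf2, a factor induced by flow and by dissociation, was at 524 and 836 against 511, 483 and 524.

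Among ligands and receptors, 28 were tested and none passed, with 3 lower and 2 higher without overlap, near the 12.1% and 12.9% of all genes, and a median of -0.08. Jag1, a Notch ligand, was at 108 and 97.9 CPM against 192, 130 and 121, while its receptor Notch3 overlapped, at 248 and 175 against 349, 162 and 238. Hhip, which binds and blocks hedgehog ligands, was at 682 and 581 against 308, 957 and 656. Sfrp1, a secreted Wnt inhibitor, was at 65.8 and 43.5 against 40.2, 16.6 and 22.1 (log2 fold change -1.01, edgeR adjusted p = 0.527). Igfbp3 rested on Het2, at 178 CPM against 12.4 in Het1 and 0, 2.56 and 2.21 in the others.

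Transcripts tied to the function of Zswim8 showed little. Of 14 microRNA hosts and trigger transcripts tested, Zswim8 itself aside, none passed, 4 were lower and 0 higher without overlap (12.1% and 12.9% of all genes), and the median was -0.12. Oip5os1, the long noncoding RNA Cyrano, which triggers the decay of miR-7, was at 96.9 and 97.9 CPM in the Het libraries and at 70.9, 56.2 and 55.9 in the KO-labelled ones (log2 fold change -0.67, SE 0.176, edgeR adjusted p = 0.362). Oip5 lies antisense to it and overlaps it. Whether the counting used strand is not given in the sources used here. H19, an imprinted microRNA host, overlapped, at 841 and 1161 against 1101, 1230 and 1082 CPM. Of 12 cell cycle genes known as targets of the miR-15/16 family, none passed, 2 were higher and 1 lower without overlap, near the 12.9% and 12.1% of all genes. Their median was 0.25, and it was 0.06 without the striated muscle members and -0.04 in the Notch3 group alone. E2f3 was at 14.2 and 13.6 against 19.7, 28.1 and 22.1 CPM. Of 10 genes of dividing cells, none passed, and 2 were higher and 0 lower without overlap (12.9% and 12.1% of all genes). Cdk1 was among them, at 52.4 and 47.1 against 78.8, 58.8 and 96.3 CPM. The median of the 10 genes was 0.32, and it was 0.435 without the striated muscle members and 0.69 in the Notch3 group alone. In that group 3 of 10 were higher and 0 lower without overlap (11.8% and 12.2% of all genes). The members with UMIs of at least 3 of these 10 genes were 9.88% and 15.6% in the Het libraries and 13.4%, 12.3% and 21.1% in the KO-labelled ones, which overlap.

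The matrix genes were examined next. Within the members none of 29 matrix genes passed, 10 were lower and 0 higher without overlap (12.1% and 12.9% of all genes), and the median was -0.20. Eln was the most abundant gene after Malat1, ribosomal, mitochondrial and haemoglobin genes aside, at 8854 and 8977 CPM in the Het libraries and 7051, 7083 and 8301 in the KO-labelled ones (log2 fold change -0.25, SE 0.121, edgeR adjusted p = 0.641). Mgp, matrix Gla protein, an inhibitor of calcification made by vascular smooth muscle, was at 4115 and 4053 against 3849, 4645 and 4083. Tnc, tenascin C, was at 111 and 119 against 81.2, 57.5 and 85.3, and Fn1, fibronectin, at 654 and 656 against 526, 385 and 529. Of 17 stress genes, 5 were lower and 0 higher without overlap (12.1% and 12.9% of all genes), with a median of -0.12. Hspa1b was among them, at 15.1 and 23.6 against 9.46, 3.83 and 5.15 CPM. The part of the stress genes in the result was not tested.

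The genotype change in members was then compared with that in 3 other kinds of cell from the same libraries. These were 168 pericytes, 416 myofibroblasts and 1512 fibroblasts with Tcf21, all with fewer than 3 of the 5 marker genes. Against the fibroblasts, 32 of 11269 genes (0.284%) had a different change, 7 of them with the higher value in smooth muscle. Of the 29 matrix genes 3 were among them, Eln and Mgp with the higher value and Fbln2, a fibulin, with the lower (-0.89, edgeR adjusted p = 0.0427). Eln was first. On the common scale of that fit it was at 8571 and 8678 CPM in Het smooth muscle cells and at 6787, 6784 and 7979 in KO-labelled ones. In the fibroblasts of the same libraries it was at 6260 and 6205 against 1994, 2140 and 2510. The difference of the log2 fold changes was 1.23 (SE 0.0845, edgeR adjusted p = 6.99e-06). Mgp was at 3983 and 3918 against 3705, 4449 and 3924 in smooth muscle cells, which overlap, and at 7452 and 6957 against 3463, 3599 and 3387 in the fibroblasts (difference 1.07, SE 0.0933, edgeR adjusted p = 8.1e-05). Eln and Mgp kept these calls under each of the 16 alternatives run. Htra1, a secreted serine protease, was at 157 and 215 against 86.5, 159 and 184 in smooth muscle cells and at 82.2 and 120 against 17.6, 39.7 and 29.3 in the fibroblasts (difference 1.45, edgeR adjusted p = 0.00738). It lost the call in 4 of the 16, among them without KO3 (edgeR adjusted p = 0.0609) and without Het2 (edgeR adjusted p = 0.0549). The fibroblast rule takes in 231 and 214 cells in the Het libraries and 378, 254 and 435 in the KO-labelled ones, and the part of that makeup in the result was not tested.

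**Figure D5:**
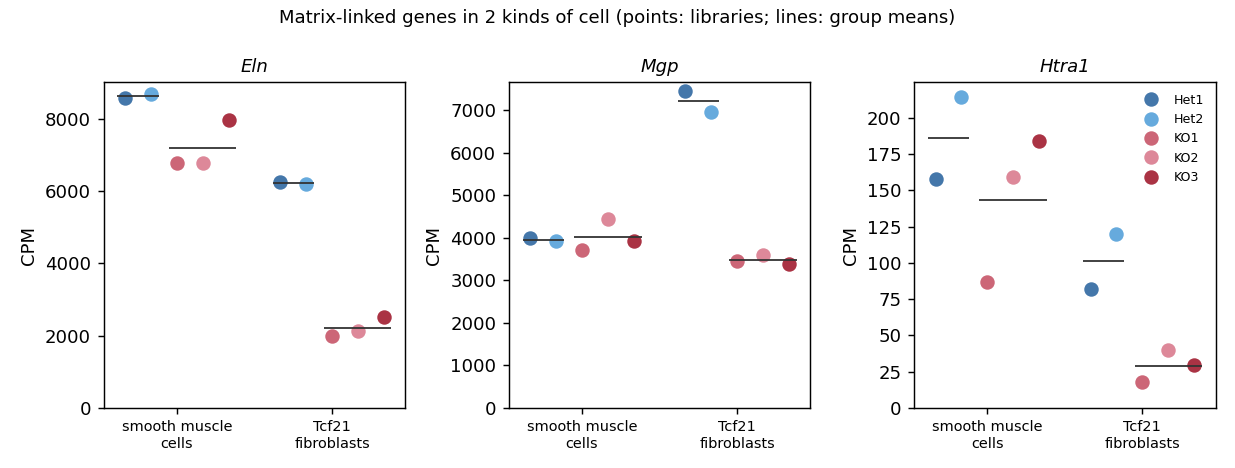
CPM of Eln, Mgp and Htra1 in smooth muscle cells (on the left of each panel) and in fibroblasts with Tcf21 (on the right); points are the 5 libraries and lines the group means. The fibroblasts of KO-labelled libraries lie well below those of Het libraries, while Mgp and Htra1 in smooth muscle cells overlap and Eln there differs less.

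Against pericytes 3 of 8710 genes (0.0344%) and against myofibroblasts 9 of 10267 (0.0877%) had a different change, in each case with the lower value in smooth muscle. Against pericytes these were the sarcomere genes Myl4 and Ttn and the imprinted Notch ligand homologue Dlk1. Dlk1 was at 101 and 324 CPM in Het and at 109, 94.99 and 112 in KO-labelled smooth muscle cells, which overlap. In Het2 3 members gave 270 of its 361 UMIs. In pericytes Dlk1 was at 214 and 938 against 1021, 664 and 781 CPM, which also overlap. Against myofibroblasts Tnni1, Ttn and Unc13c, a regulator of vesicle priming, came first. In myofibroblasts Unc13c was at 8.80 and 7.16 CPM against 32.9, 38.7 and 12.5. In smooth muscle cells its UMIs lay in 2 members of Het1 and 1 of Het2. With the 13 striated muscle members left out, edgeR called 0 genes against either kind of cell (380 and 591 at an unadjusted p under 0.05), and 13 against the fibroblasts. Leaving them out also lowers the striated genes below the filter: 1 of the 3 genes called against pericytes and 6 of the 9 against myofibroblasts were still tested. Dlk1 then had a difference of -1.85 (edgeR adjusted p = 0.0703), against -1.60 with all members.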

How the data were processed

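Droplet libraries (10x 3′ chemistry), 1 per embryo, were counted by the submitters (per the file headers, in Cell Ranger 4.0.0), and build mm10 is named in the submitters' processing notes. The deposited values are raw UMI counts per gene and barcode, not normalized; strand use in counting is not given in the sources used here. Of 50355 barcodes, 19491 passed the limits of 500 genes and 15% mitochondrial UMIs. The median depth of members was 10307 to 13050 UMIs per library; intervals cover counting error only. Doublets were scored with scanpy 1.11.5 and left out only as an alternative (1 member scored high).

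UMIs of members were summed per library and tested with edgeR 4.0.16 (quasi-likelihood, TMM, filterByExpr, Benjamini-Hochberg over all genes tested, threshold 0.05); DESeq2 1.42.0 was an alternative. Differences in genotype change between cell types used a model with library as a block. CPM are TMM-scaled. Fits were tested on data simulated with the trend of spread fitted here. The main test found 34 of 95 genes changed by 1 log2 unit (35.8%) and 85 of 95 changed by 2 (89.5%). The cell type comparisons found 11.2% to 28.9% of the genes changed by 1 log2 unit. The share was compared by an exact permutation test over libraries. Named genes are those past the threshold without overlap and with at least 20 CPM in the higher group, the 10 nearest the threshold in a direction with fewer than 5, the 3 first in each direction of each cell type comparison, list members by role, the 10 most abundant, and Zswim8; some genes that meet the rule are not reported here. Gene coordinates are from GENCODE (GRCm38). The members and gene lists were chosen with earlier results of these data known, and the marker classes and the alternatives that use them were set after the values were seen. P-values measure the spread between embryos.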

Additional observations from a re-analysis of the deposited data

Results flagged for a closer look

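Listed here are 12 cases in which the genotype change in smooth muscle cells differed from that in another kind of cell of the same libraries. Each passed the edgeR test of the difference itself, and Tnni1 and Ttn each appear more than once. They are at most the first 3 in each direction among 32 genes called against fibroblasts, 9 against myofibroblasts and 3 against pericytes. The values are differences of log2 fold changes, smooth muscle minus the other kind. Against fibroblasts with Tcf21 they were 1.23 for Eln, 1.07 for Mgp and 1.45 for Htra1, and -7.72 for Tnni1, -6.33 for Ckm and -2.75 for Tnnt1, all muscle genes in the latter case. Against myofibroblasts they were -7.71 for Tnni1, -10.7 for Ttn and -8.68 for Unc13c. Against pericytes they were -7.24 for Myl4, -1.60 for Dlk1 and -12.7 for Ttn. The pericyte calls held in 8 of 14 alternatives with a value for Myl4, 7 of 16 for Dlk1 and 4 of 13 for Ttn. The myofibroblast calls held in 10 of 16 for Tnni1, 10 of 13 for Ttn and 9 of 16 for Unc13c. For the muscle genes against fibroblasts, the calls held in 10 of 15 for Tnni1 and in 10 of 16 for Ckm and Tnnt1 each. Where a group is at 0, such as Ttn in Het pericytes or Unc13c in KO-labelled smooth muscle cells, the fitted difference depends on the prior count and is no bound. The 13 members with striated muscle markers, 9 of them in Het1, held nearly all titin counts. Of the 2633 titin UMIs in Het1, a single member held 2475. The part of the 13 members in the other differences was measured only by leaving them out.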

How the results depend on the processing

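Counts of called genes moved with most choices. For smooth muscle cells, 3 in the main test, the count was 35 with DESeq2, 8 with library size alone, 232 with no filter, 12 with at least 10 UMIs in each library of a group, 1 with up to 1 UMI of other cells' genes, 25 without members with myofibroblast markers and 6 with Notch3 members only. It was 0 by edgeR with 4 of the 5 genes (319 at an unadjusted p under 0.05), with 2 (582) and with sex as a covariate (361), and 3 to 97 with a library left out. The replicate block gave 56, but same-numbered libraries deviated together little (correlations 0.0524 and 0.078), so the numbers were not taken as pairs. Against pericytes (3) it was 1 with library size alone or high doublet scores left out, 73 with no filter, 21 with 2 of the 5 genes, and 0 to 28 with a library left out. By edgeR it was 0 with 4 genes, up to 1 other UMI, stricter cell limits, sex, or no striated muscle members (265, 463, 367, 331 and 380 at an unadjusted p under 0.05). Against myofibroblasts (9) it was 146 with no filter, 1 with 2 genes, 2 with up to 1 other UMI and 4 to 56 with a library left out. By edgeR it was 0 with 4 genes, stricter limits, sex, or no striated muscle members (320, 627, 368 and 591). Against fibroblasts (32) it was 239, 4, 5, 13, 14, 15 and 13 with no filter, 4 genes, 2 genes, up to 1 other UMI, stricter limits, sex and no striated muscle members, and 5 to 47 with a library left out. The lowest came without KO3. The share difference of 0.558 points was 0.191 with 4 genes, 1.29 with 2, 0.405 to 0.738 with a library left out, and reversed to -0.0492 after thinning and to -3.11 among cells with collagen UMIs. Higd1b reversed to 0.28 with 2 genes. The cause was not tested. With 65 to 95 members per library, genes of low level rest on few cells.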
